A study of Mus musculus with 16 samples.

Results

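The genes followed here are 10 epithelial and mesenchymal genes in mouse blood stem cells and in pluripotent cells reprogrammed from blood: the epithelial genes Cdh1, Epcam, Cldn6, Ocln and Esrp1, the mesenchymal genes Cdh2 and Vim, and the repressor genes Zeb1, Zeb2 and Snai1. Every probe set whose only gene symbol was one of these was taken, which gave 22 of the 45037 non-control probe sets of an Affymetrix mouse array, for 10 of its 18193 singly named genes. Zeb2 had 5 probe sets, Zeb1 had 4, Vim had 3, Epcam, Ocln and Cdh2 had 2 each, and Cdh1, Cldn6, Esrp1 and Snai1 had 1 each. A level is the log2 of a probe set's intensity on an array, so a difference of 1 is a doubling.

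The 16 arrays fell into 7 groups, all C57Bl6 and wild type. There were 2 arrays each of induced pluripotent stem cells (iPSC) of aged haematopoietic origin, iPSC of young haematopoietic origin, and embryonic stem cells (ESC), the last bought from Open Biosystems and from Primogenix. There were also 2 arrays each of haematopoietic stem cells (HSC) sorted from recipients of aged marrow and of young marrow, called transplanted HSC here, and 3 arrays each of HSC sorted from aged (21 to 24 months) and young (3 to 4 months) male mice at steady state. The iPSC and ESC grew on feeder layers of mouse embryonic fibroblasts, and cRNA was made from 10000 cells per array. The labels do not give the age or sex of the recipients, the factors used for reprogramming or the number of iPSC lines. A p-value here reflects only how far these arrays spread.

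Epithelial cells hold to their neighbours through E-cadherin, encoded by Cdh1, and seal the space between them with tight junctions. In an epithelial-to-mesenchymal transition, zinc-finger repressors of the Zeb and Snail families bind the E-box CACCTG in the promoters of Cdh1 and other junction genes, and cells take up vimentin filaments and N-cadherin. The reverse transition is known as an early step when fibroblasts are reprogrammed, and mouse pluripotent cells grow as compact colonies held together by E-cadherin. Blood stem cells are not epithelial and do not form junctional sheets, but they do contain vimentin, and Zeb2 is known to be needed in blood formation.

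The sequences just before the start sites are shown for junction genes that differed between iPSC and steady-state HSC in opposite directions. They are also shown for the repressor gene Snai1 and for Vim. The E-box is the sequence through which Zeb and Snail proteins are known to act. Each is the 250 bases upstream of a RefSeq start site on mouse build GRCm38.p6, written 5′ to 3′ on the gene's strand, with capitals marking CACCTG or CAGGTG, which is the same E-box read on either strand. RefSeq windows were used for Epcam, Ocln, Cldn6, Snai1, Zeb2 and Vim, and none was used here for Cdh1, Cdh2, Esrp1 or Zeb1.
Epcam, chr17:87635729-87635978, plus strand: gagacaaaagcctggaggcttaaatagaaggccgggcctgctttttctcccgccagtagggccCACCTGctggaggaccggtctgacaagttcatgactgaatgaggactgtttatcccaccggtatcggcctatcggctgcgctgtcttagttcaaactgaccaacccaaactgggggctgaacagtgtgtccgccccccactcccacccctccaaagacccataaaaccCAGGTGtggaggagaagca
Cldn6, chr17:23679115-23679364, plus strand: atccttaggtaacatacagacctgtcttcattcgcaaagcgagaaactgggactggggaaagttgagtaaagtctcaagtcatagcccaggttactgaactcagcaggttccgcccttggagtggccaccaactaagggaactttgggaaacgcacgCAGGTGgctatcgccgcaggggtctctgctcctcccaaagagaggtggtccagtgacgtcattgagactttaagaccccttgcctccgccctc
Ocln, chr13:100552499-100552748, minus strand: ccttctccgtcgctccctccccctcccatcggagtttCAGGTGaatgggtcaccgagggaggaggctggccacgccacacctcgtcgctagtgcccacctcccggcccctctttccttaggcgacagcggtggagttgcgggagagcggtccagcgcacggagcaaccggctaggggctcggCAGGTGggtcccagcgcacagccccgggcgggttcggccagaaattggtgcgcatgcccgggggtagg
Snai1, chr2:167537945-167538194, plus strand: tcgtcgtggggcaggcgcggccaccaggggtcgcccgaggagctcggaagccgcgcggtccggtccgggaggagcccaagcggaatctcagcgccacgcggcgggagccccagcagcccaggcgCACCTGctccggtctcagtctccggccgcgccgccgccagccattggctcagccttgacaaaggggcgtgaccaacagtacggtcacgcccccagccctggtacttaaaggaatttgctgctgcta
Vim, chr2:13574061-13574310, plus strand: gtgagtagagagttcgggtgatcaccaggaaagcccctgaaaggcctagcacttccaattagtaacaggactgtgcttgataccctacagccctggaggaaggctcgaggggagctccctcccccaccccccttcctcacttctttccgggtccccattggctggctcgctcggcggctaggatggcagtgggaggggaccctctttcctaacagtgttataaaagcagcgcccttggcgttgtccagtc
The Epcam window held the E-box 2 times, with first bases 187 and 19 bases before the start site. The Ocln window also held it 2 times, 213 and 68 bases before the start, and a further Ocln start site had a window without it. Cldn6 and Snai1 held 1 each, at 93 and 126 bases, and the windows of Vim and Zeb2 held none. Among all 32851 windows of this kind, 17.2% held at least 1 E-box and 2.06% held 2 or more. The E-box was thus present before genes that were higher in iPSC than in steady-state HSC (Epcam, Cldn6) and before one that was lower (Ocln). Against transplanted HSC the Ocln probe sets parted in sign, as given below. A match describes these letters and is not in itself a binding site.

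The labels were checked against marker genes. The summed intensity of 8 markers of pluripotent cells, such as Pou5f1 and Nanog, was 21270 to 22448 on iPSC arrays and 23459 to 23465 on ESC arrays, against 148 to 158 on transplanted HSC arrays and 226 to 270 on steady-state HSC arrays. The 7 measured of 8 HSC markers, such as Kit and Procr, summed to 530 to 665 on iPSC arrays, against 8015 to 8938 on transplanted and 22754 to 27079 on steady-state HSC arrays. The 11 measured of 12 fibroblast markers summed to 642 to 968 on iPSC arrays and 891 to 909 on ESC arrays, against 424 to 506 on transplanted and 442 to 483 on steady-state HSC arrays. Of these 11, 4 lay above the median probe set in aged-origin iPSC, and 6 each in young-origin iPSC and in ESC. In HSC the number was 4 for young steady-state and 3 for each other group, so the sums do not describe every marker. Median intensity was 43.4 to 51.8 per array. Replicate arrays correlated across probe sets at 0.992 to 0.993 in iPSC and ESC and at 0.981 to 0.991 in steady-state HSC, but at 0.966 in aged and 0.945 in young transplanted HSC. The transplanted arrays also stood apart in their control probe sets: the log2 signal at the 3′ end of the β-actin mRNA minus that at its 5′ end was -0.26 to -0.05 on them, against 1.98 to 2.25 on steady-state HSC arrays. That difference was 2.08 to 2.69 on iPSC arrays and 1.97 to 2.22 on ESC arrays. iPSC and steady-state HSC arrays overlapped at the β-actin and Gapdh controls, but not at those of the transferrin receptor and pyruvate carboxylase. The transferrin receptor controls gave 2.49 to 2.74 on iPSC arrays, against 1.22 to 1.88 on steady-state HSC arrays. The pyruvate carboxylase controls gave 0.61 to 0.91 on iPSC arrays, against 0.10 to 0.55 on steady-state HSC arrays. The part of these control differences in the results on transplanted HSC, and on iPSC against HSC, was not tested. In RNA from many cells, fewer cells of a type and less RNA per cell cannot be told apart.

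The levels of these genes were compared between 4 iPSC arrays and 6 steady-state HSC arrays. The titles give the iPSC only a haematopoietic origin, so this compares cell types and does not follow cells through reprogramming. Of the 22 probe sets, 19 were called by limma at an adjusted p under 0.05, 7 higher and 12 lower in iPSC. Over all probe sets of the array 57.4% were called in this comparison, 33.8% higher and 23.6% lower, so a call here is common, and the sizes say more than the count. The arrays of 16 of the 22 did not overlap, where 52.9% of all probe sets had no overlap. The median difference was -0.51 over the 22 and 0.15 over all probe sets. This median and the counts are of probe sets and not of genes. Vim, Zeb1 and Zeb2 hold 3, 4 and 5 of the 22, so these genes weigh more in them.

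**Figure D1:**
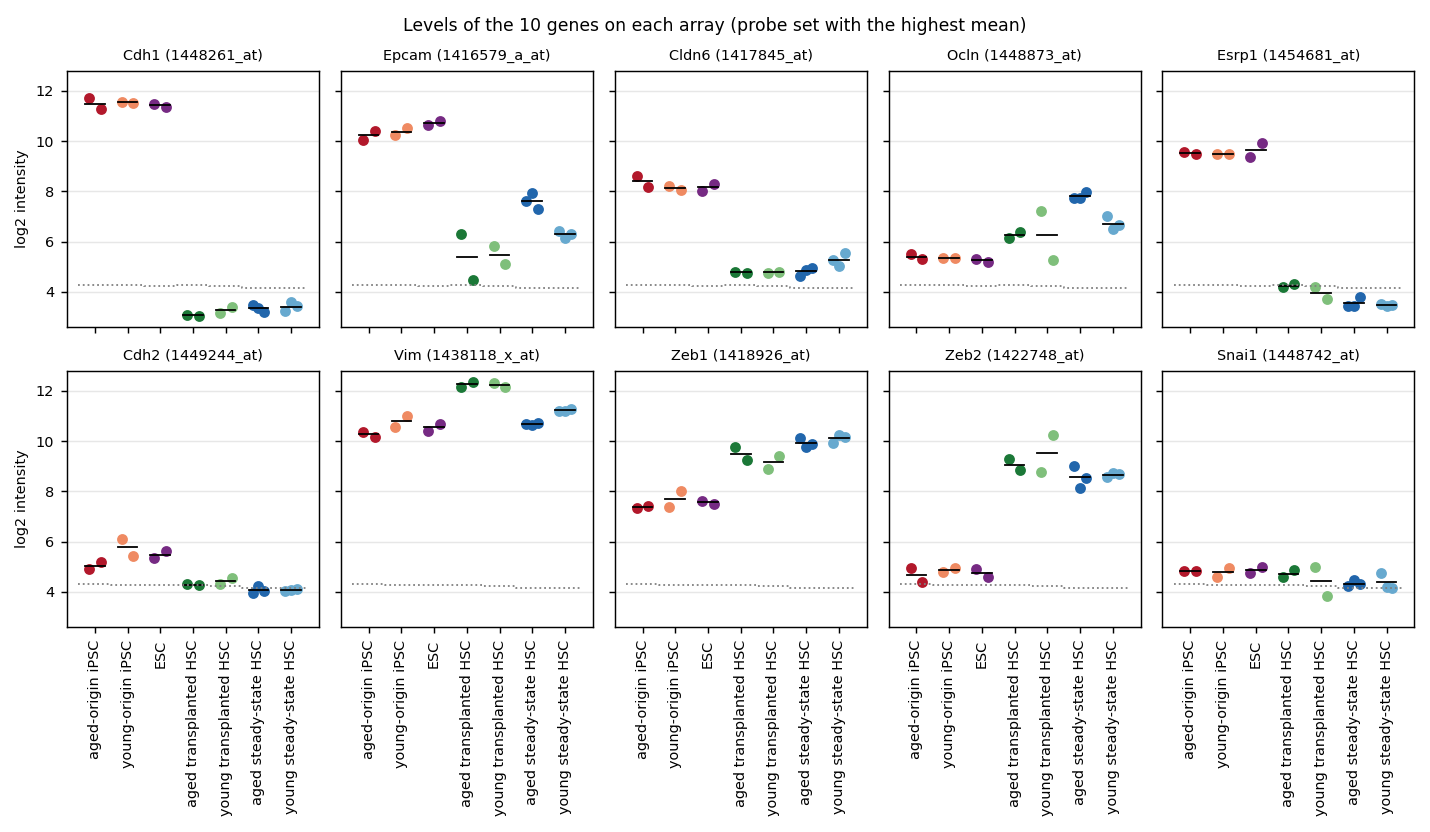
Log2 intensity (vertical axis) of each gene's probe set with the highest mean on every array (points) in the 7 groups (horizontal axis), with the group mean as a bar and the group's 25th percentile over all probe sets as a dotted line. Cdh1, Epcam, Cldn6 and Esrp1 were high in iPSC and ESC, Zeb1 and Zeb2 were high in HSC, and Ocln was highest in aged steady-state HSC.

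Cdh1, which encodes E-cadherin, gave 11.70 and 11.29 in aged-origin iPSC, 11.57 and 11.53 in young-origin iPSC and 11.50 and 11.37 in ESC. It gave 3.07 and 3.05 in aged transplanted HSC and 3.15 and 3.41 in young transplanted HSC, and 3.48, 3.37 and 3.21 in aged and 3.24, 3.58 and 3.42 in young steady-state HSC. The iPSC and ESC arrays lay far above all HSC arrays with no overlap, and the groups within each side were close together. The iPSC level was 281-fold that of steady-state HSC (log2 difference 8.14, SE 0.12, limma adjusted p = 1.99e-14). In HSC the probe set stood between the 4.93rd and 10.2nd percentile of all probe sets, so the HSC level cannot be told from array background. The table has no detection calls, and a low level cannot be told from absence.

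Esrp1, an epithelial RNA-binding protein that sets splicing patterns, gave 9.58 and 9.51 in aged-origin iPSC, 9.48 and 9.48 in young-origin iPSC and 9.37 and 9.91 in ESC. The range was 3.72 to 4.33 in transplanted and 3.42 to 3.81 in steady-state HSC. Here too the pluripotent and HSC arrays did not overlap, with a 63.7-fold difference between iPSC and steady-state HSC (log2 5.99, SE 0.14, limma adjusted p = 5.99e-13). Its HSC level lay below the 25th percentile in all 4 HSC groups, so its fold depends on the array floor.

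Epcam, an adhesion molecule of epithelia and of pluripotent cells, had 2 probe sets. Probe set 1416579_a_at gave 10.06 and 10.40 in aged-origin iPSC, 10.26 and 10.51 in young-origin iPSC and 10.64 and 10.79 in ESC. In transplanted HSC it gave 6.32 and 4.49 for aged marrow and 5.81 and 5.11 for young marrow. In steady-state HSC it gave 7.64, 7.93 and 7.32 for aged mice, against 6.42, 6.16 and 6.32 for young mice. All pluripotent arrays were above all HSC arrays, and among HSC the aged steady-state arrays were highest. Its iPSC level was 10.2-fold that of steady-state HSC (log2 3.34, SE 0.28, limma adjusted p = 2.45e-07). The other probe set, 1447899_x_at, gave 8.09 to 8.40 in iPSC, 3.15 to 4.02 in transplanted HSC and 6.71 to 6.95 in steady-state HSC. Its iPSC excess over steady-state HSC was smaller, at 2.67-fold (log2 1.41, SE 0.17, limma adjusted p = 7.19e-06).

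Cldn6, a claudin of tight junctions found in embryonic epithelia, gave 8.63 and 8.18 in aged-origin iPSC, 8.21 and 8.07 in young-origin iPSC and 8.03 and 8.30 in ESC. It gave 4.75 to 4.81 in transplanted HSC and 4.65 to 5.55 in steady-state HSC. The iPSC level was 9.33-fold that of steady-state HSC (log2 3.22, SE 0.13, limma adjusted p = 1.67e-10), with no overlap.

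Ocln, which encodes the tight-junction protein occludin, went the other way. Probe set 1448873_at gave 5.49 and 5.32 in aged-origin iPSC, 5.35 and 5.35 in young-origin iPSC and 5.33 and 5.18 in ESC. It gave 6.16 and 6.37 in aged and 7.23 and 5.26 in young transplanted HSC. In steady-state HSC it gave 7.75, 7.75 and 7.97 for aged mice, against 7.02, 6.50 and 6.65 for young mice. The iPSC and ESC arrays were below every steady-state array, and a young transplanted array reached down among them. iPSC were lower than steady-state HSC by 1.89 on the log2 scale (the steady-state level was 3.72-fold higher, SE 0.28, limma adjusted p = 5.12e-05). The other probe set, 1440220_at, gave 5.43 to 5.83 in iPSC and 6.19 to 7.74 in steady-state HSC, a difference of -1.26 (SE 0.23, limma adjusted p = 0.000346). Ocln was thus the only one of the 5 epithelial genes with a lower level in iPSC than in steady-state HSC.

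Of the mesenchymal genes, Cdh2, which encodes N-cadherin, was higher in iPSC and not lower. Probe set 1449244_at gave 4.89 and 5.18 in aged-origin iPSC, 6.11 and 5.43 in young-origin iPSC and 5.34 and 5.61 in ESC. It gave 4.27 to 4.53 in transplanted HSC and 3.93 to 4.22 in steady-state HSC. The iPSC level was 2.52-fold that of steady-state HSC (log2 1.34, SE 0.14, limma adjusted p = 1.77e-06). Probe set 1418815_at was 2.22-fold higher (log2 1.15, SE 0.17, limma adjusted p = 7.11e-05), at 3.76 to 4.80 in iPSC and 3.09 to 3.43 in steady-state HSC. The Cdh2 levels were modest, at the 24.7th to 54.3rd percentile of all probe sets in the 2 iPSC groups. In the HSC groups 1449244_at lay at the 23.2nd to 28.3rd percentile and 1418815_at at the 3.38th to 8.01st. The HSC level of 1418815_at cannot be told from array background, so its fold depends on that floor.

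Vim, which encodes the intermediate filament protein vimentin, was slightly lower in iPSC at all 3 probe sets. Probe set 1438118_x_at gave 10.37 and 10.16 in aged-origin iPSC, 10.56 and 11.01 in young-origin iPSC, and 10.42 and 10.66 in ESC. It gave 12.16 and 12.35 in aged and 12.32 and 12.15 in young transplanted HSC, and 10.67, 10.63 and 10.71 in aged and 11.20, 11.19 and 11.28 in young steady-state HSC. The iPSC arrays overlapped the steady-state arrays, with a difference of -0.42 (SE 0.11, limma adjusted p = 0.00563). Probe sets 1456292_a_at and 1450641_at differed by -0.72 and -0.58 (limma adjusted p = 0.000123 and 0.0034), also with overlapping arrays. Group means of the Vim probe sets lay at the 89.9th to the 99.1st percentile. Of the fibroblast marker sums given above, the highest was on a young-origin iPSC array, and their part in the Vim level of cells grown on feeders was not tested.

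Among the repressor genes, Zeb2, a zinc-finger repressor of Cdh1, was lower in iPSC at all 5 probe sets. Probe set 1434298_at gave 2.68 and 2.63 in aged-origin iPSC, 2.87 and 2.98 in young-origin iPSC and 2.99 and 2.70 in ESC. It gave 7.54 and 7.77 in aged and 7.96 and 7.74 in young transplanted HSC, and 7.63, 7.49 and 7.48 in aged and 7.49, 7.06 and 7.22 in young steady-state HSC. Each HSC array was more than 4 log2 units above each pluripotent array, and the steady-state level was 24.3-fold the iPSC level (log2 difference -4.61, SE 0.12, limma adjusted p = 1.47e-12). In iPSC and ESC it was among the dimmest probe sets of the array, at the 0.211th to 2.15th percentile. Its fold therefore depends on the array floor. The same holds for 1456389_at, at the 6.10th and 3.74th percentile in aged-origin and young-origin iPSC. Probe set 1456389_at differed by -4.18 (SE 0.13), 1422748_at by -3.83 (SE 0.26) and 1454200_at by -2.35 (SE 0.27). Probe set 1458941_at differed by only -0.77 (SE 0.22, limma adjusted p = 0.00858), the highest adjusted p of the 5.

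Zeb1, the close relative of Zeb2, was lower in iPSC at 2 of its 4 probe sets. Probe set 1418926_at gave 7.35 and 7.44 in aged-origin iPSC, 7.39 and 8.03 in young-origin iPSC and 7.63 and 7.48 in ESC. It gave 9.75 and 9.23 in aged and 8.88 and 9.42 in young transplanted HSC, and 10.11, 9.75 and 9.90 in aged and 9.94, 10.25 and 10.17 in young steady-state HSC. The steady-state level was 5.54-fold the iPSC level (log2 difference -2.47, SE 0.16, limma adjusted p = 2.07e-08), without overlap, although the iPSC signal remained at the 75.2nd to 77.9th percentile. Probe set 1446127_at gave 4.05 to 4.95 in iPSC and 7.27 to 8.89 in steady-state HSC, a difference of -3.46 (SE 0.28, limma adjusted p = 1.84e-07). Probe sets 1443005_at and 1420243_at differed by -0.43 and 0.00, and did not pass (limma adjusted p = 0.0512 and 1). For the first of these the call depends on single arrays: its adjusted p was 0.0119 without aged steady-state HSC replicate 3, 0.0322 without young steady-state HSC replicate 2 and 0.0465 without either young transplanted array, which enters only the shared spread.

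Snai1, a repressor of the Snail family, had low levels in all 7 groups and did not pass. It gave 4.82 and 4.85 in aged-origin iPSC, 4.60 and 4.95 in young-origin iPSC and 4.77 and 4.97 in ESC. It gave 4.57 and 4.86 in aged and 4.997 and 3.83 in young transplanted HSC, and 4.23, 4.45 and 4.30 in aged and 4.77, 4.21 and 4.14 in young steady-state HSC. The iPSC arrays overlapped both kinds of HSC arrays, and iPSC minus steady-state HSC was 0.45 (95% interval 0.02 to 0.89, limma adjusted p = 0.0718). It passed without young steady-state HSC replicate 1 (0.55, adjusted p = 0.0324) and without either young transplanted array (0.45, adjusted p = 0.0119). Against transplanted HSC it passed without young transplanted replicate 1 (0.53, adjusted p = 0.0127, against 0.24 and 0.348 with all arrays).

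**Figure D2:**
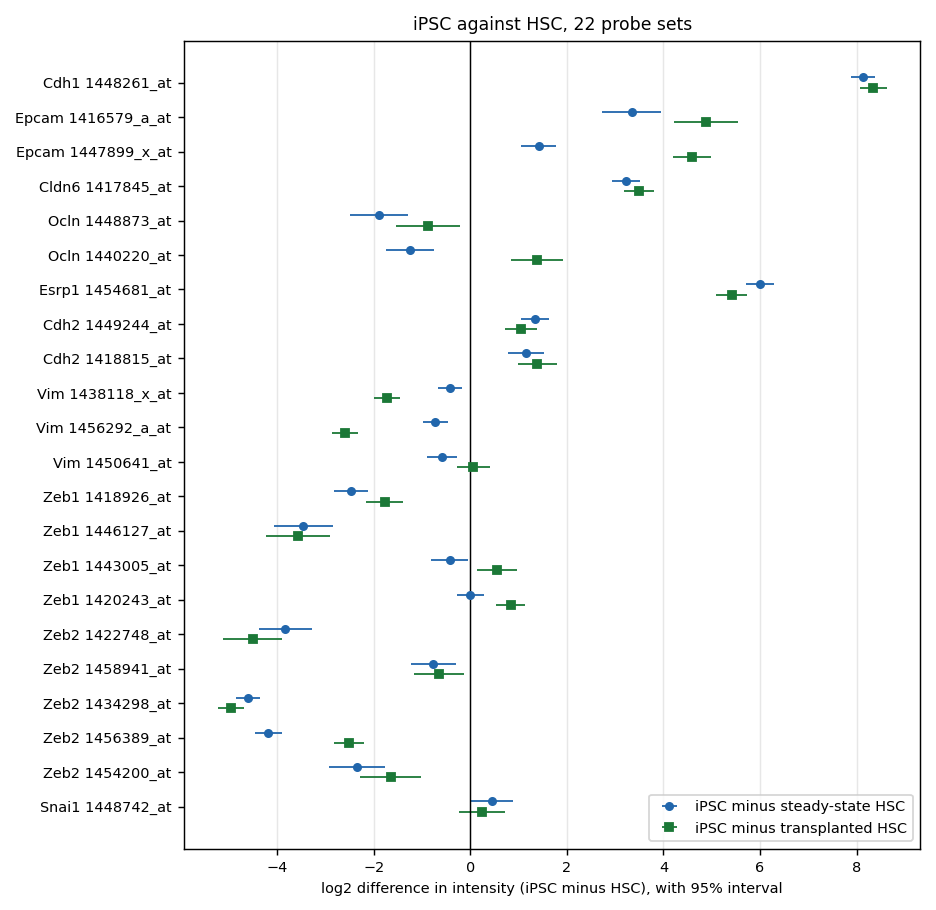
Log2 difference in intensity (horizontal axis, with 95% interval) for the 22 probe sets (vertical axis), for iPSC minus steady-state HSC (circles) and iPSC minus transplanted HSC (squares). Cdh1 stood at 8.14 and 8.35 and Zeb2 1434298_at at -4.61 and -4.96, while Ocln 1440220_at lay on opposite sides of 0.

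The same iPSC arrays were set against the 4 transplanted HSC arrays, so these differences share the iPSC side with those above. Of the 22 probe sets 20 were called, 10 higher and 10 lower in iPSC, where 69.2% of all probe sets were called, 37.7% higher and 31.5% lower. Cdh1 was 326-fold higher (log2 8.35, SE 0.13), Esrp1 42.6-fold (5.41, SE 0.15) and Cldn6 11.3-fold (3.49, SE 0.14). Epcam was 29.3-fold higher at 1416579_a_at and 24.2-fold at 1447899_x_at, folds closer to each other here than against steady-state HSC. At 1447899_x_at, however, the aged and young transplanted HSC groups stood at the 15.3rd and 12.7th percentile. A signal there cannot be told from background, so that fold and its closeness to the other depend on the floor. The Zeb2 probe sets were lower by 0.64 to 4.96 on the log2 scale. The smallest of these, 1458941_at, passed with all arrays (limma adjusted p = 0.0289) and not without young transplanted replicate 1 (-0.38, adjusted p = 0.131), aged transplanted replicate 1 (-0.55, 0.0899), aged-origin iPSC replicate 2 (-0.59, 0.0827) or young-origin iPSC replicate 1 (-0.60, 0.0777).

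Probe sets of 1 gene parted in sign or call in 3 cases against transplanted HSC. Ocln was lower in iPSC at 1448873_at (-0.88, SE 0.30, limma adjusted p = 0.0197) and higher at 1440220_at (1.39, SE 0.25, limma adjusted p = 0.000235). At 1440220_at the aged and young transplanted HSC groups stood at the 26.8th and 22.9th percentile, near background, so that difference depends on the floor. The difference at 1448873_at did not pass without aged transplanted replicate 2 (-0.83, adjusted p = 0.052) or aged-origin iPSC replicate 2 (-0.83, adjusted p = 0.0559). It was -0.38 without young transplanted replicate 1 and -1.37 without replicate 2. Zeb1 was lower at 1418926_at and 1446127_at (-1.77 and -3.57) and higher at 1443005_at (0.55). Probe set 1420243_at was also called higher (0.83), but its group means lay between the 1.07th and the 14.9th percentile in all 7 groups, where a signal cannot be told from background. The call of 1443005_at (limma adjusted p = 0.0208) was lost without young transplanted replicate 2, aged transplanted replicate 1, aged-origin iPSC replicate 1 or young-origin iPSC replicate 1 (adjusted p = 0.0585, 0.0611, 0.062 and 0.0554, with differences of 0.48, 0.50, 0.51 and 0.53). Vim was lower at 1438118_x_at (-1.72, SE 0.12) and 1456292_a_at (-2.59, SE 0.13), and differed by 0.06 at 1450641_at (95% interval -0.28 to 0.40, limma adjusted p = 0.757).

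ESC served as the other pluripotent cells. Against the same steady-state arrays, 19 of 22 probe sets were called in ESC, 7 higher and 12 lower, where 44.3% of all probe sets were called, 24.4% higher and 19.9% lower. The ESC and iPSC values stood side by side: Cdh1 differed by 8.14 in iPSC and 8.05 in ESC, and Esrp1 by 5.99 in iPSC and 6.12 in ESC. Ocln 1448873_at differed by -1.89 in iPSC and -2.02 in ESC, and Zeb2 1434298_at by -4.61 in iPSC and -4.55 in ESC. Both sets of values share their HSC arrays. The calls did not all fall on the same probe sets. Vim 1450641_at, called lower in iPSC, was not called in ESC (mean 10.19, against 10.52 in steady-state HSC). Zeb1 1443005_at was called lower in ESC and not in iPSC. The smallest ESC calls rest on few arrays, with 2 ESC arrays in all. Without ESC replicate 1, Vim 1438118_x_at moved to -0.28 (limma adjusted p = 0.301, against -0.41 and 0.0335 with all arrays), Vim 1456292_a_at to -0.53 (0.0571, against -0.65 and 0.00248) and Zeb1 1443005_at to -0.35 (0.419, against -0.58 and 0.0492). Without ESC replicate 2, Zeb2 1458941_at moved to -0.51 (0.328, against -0.79 and 0.0331), and Vim 1438118_x_at and Zeb1 1443005_at also lost their calls (0.0516 and 0.0505). Leaving out single steady-state arrays ended the same 3 calls, of Vim 1438118_x_at, Zeb1 1443005_at and Zeb2 1458941_at, with adjusted p of up to 0.0839. The Zeb1 1443005_at call was also lost without any 1 of the iPSC or aged transplanted arrays (adjusted p of up to 0.0638). Snai1 was not called in ESC (0.52, adjusted p = 0.124) but passed without either young transplanted array (0.0257), and Zeb1 1420243_at (-0.37, adjusted p = 0.0887) passed without either young-origin iPSC array (0.0394).

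Set directly against each other, iPSC and ESC showed no call among the 22 probe sets in limma, and 0.0733% of all probe sets were called. An unadjusted p under 0.05 was found for 2 of the 22, and for 11% of all probe sets. The arrays of 3 probe sets did not overlap, where 21.6% of all probe sets had no overlap. Epcam 1416579_a_at differed by -0.41 (95% interval -0.73 to -0.08, adjusted p = 0.347), with the 4 iPSC arrays below both ESC arrays. Zeb2 1456389_at was the other, at -0.28 (95% interval -0.55 to -0.00, adjusted p = 0.452). The interval for Cdh1 was -0.24 to 0.41, for Esrp1 -0.48 to 0.23, and for Snai1 -0.38 to 0.25. These intervals leave room for differences of that size, and a missed threshold does not show equal levels.

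The origin of the iPSC in aged or young blood was compared with 2 arrays each. None of the 22 probe sets was called in limma, and 0.00888% of all probe sets were called. An unadjusted p under 0.05 was found for 3 of the 22, and for 4.64% of all probe sets. The arrays of 7 probe sets did not overlap between the origins, where 32.4% of all probe sets had no overlap, so the share among the 22 was near that of all. Cdh2 1449244_at gave 4.89 and 5.18 in aged-origin iPSC, against 6.11 and 5.43 in young-origin iPSC (difference -0.73, SE 0.22, adjusted p = 0.996). This moved to -0.39 without young-origin replicate 1 and to -1.08 without young-origin replicate 2. The 3 Vim probe sets differed by -0.52, -0.52 and -0.34, with no overlap and an adjusted p of 0.996 each. At 1456292_a_at the values were 9.22 and 9.20 in aged-origin iPSC, against 9.49 and 9.98 in young-origin iPSC. The sum of the 11 fibroblast markers was 642 and 646 on the aged-origin arrays, against 647 and 968 on the young-origin arrays, and its part in the Vim difference was not tested. Cdh1 differed by -0.05 (95% interval -0.42 to 0.32) and Epcam 1416579_a_at by -0.15 (-0.53 to 0.23).

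Age in steady-state HSC was examined with 3 aged and 3 young arrays. No probe set of the 22 was called by limma, and 0.495% of all probe sets were called. An unadjusted p under 0.05 was found for 7 of the 22, from 4 genes, and for 4.8% of all probe sets. The arrays of 7 probe sets did not overlap between the ages, where 14.2% of all probe sets had no overlap. Epcam 1416579_a_at, with the array values given above, stood at 2.51-fold in aged over young HSC (log2 1.33, SE 0.41, 95% interval 0.40 to 2.26, limma adjusted p = 0.527). Fitted on the steady-state arrays alone, which leaves the more scattered transplanted arrays out of the spread, its adjusted p was 0.0175. The other Epcam probe set, 1447899_x_at, did not follow: it gave 6.87, 6.94 and 6.74 in aged and 6.95, 6.78 and 6.71 in young HSC (difference 0.04, 95% interval -0.50 to 0.57).

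Ocln differed by 1.10 between aged and young steady-state HSC at 1448873_at (SE 0.41, limma adjusted p = 0.811), with no overlap between the ages. Its adjusted p was 0.0278 on the steady-state arrays alone and 0.0269 without young transplanted HSC replicate 1 or replicate 2. At 1440220_at it gave 6.62, 7.59 and 7.74 in aged and 6.49, 6.71 and 6.19 in young HSC, with 1 aged array among the young ones (difference 0.85, SE 0.33, adjusted p = 0.888). The 3 Vim probe sets differed by -0.55, -0.58 and -0.59 (limma adjusted p = 0.195, 0.204 and 0.699), without overlap at any of them. At 1450641_at the values were 10.30, 10.13 and 10.24 in aged HSC, against 10.75, 10.74 and 10.94 in young HSC. After 64 was added to each intensity, 1438118_x_at and 1456292_a_at passed (adjusted p = 0.0207 and 0.0477). Cldn6 differed by -0.45 (SE 0.17, adjusted p = 0.789), at 4.65, 4.88 and 4.95, against 5.25, 5.02 and 5.55 in young HSC. Zeb1, Zeb2 and Snai1 differed by -0.40 to 0.28 with age, and Cdh1 by -0.06 (95% interval -0.40 to 0.28).

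**Figure D3:**
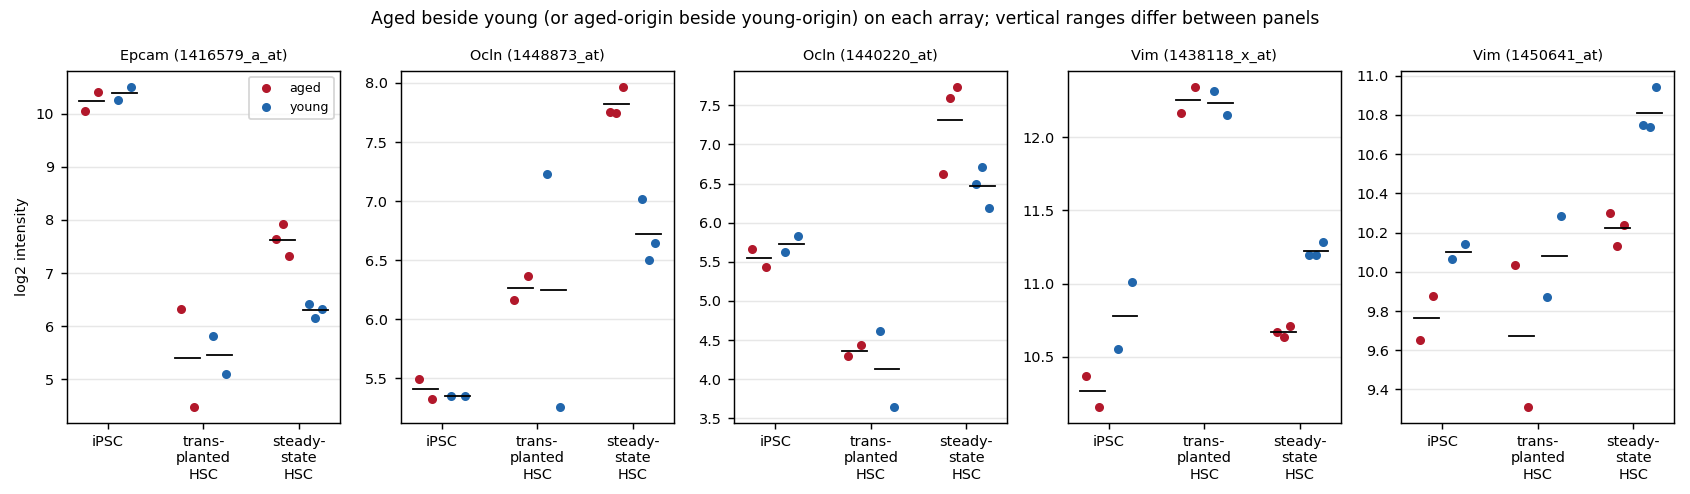
Log2 intensity (vertical axes, with a different range in each panel) on each aged array (left points) and young array (right points) in iPSC, transplanted HSC and steady-state HSC, with group means as bars. In steady-state HSC Epcam 1416579_a_at and Ocln 1448873_at were higher and Vim lower on all 3 aged arrays than on all 3 young arrays. No difference in any setting passed the main test over all probe sets, and some in steady-state HSC passed under the alternatives given in the text.

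In transplanted HSC, aged against young marrow gave no call among the 22 probe sets in limma, where 0.833% of all probe sets were called. An unadjusted p under 0.05 was found for 3 of the 22, and for 12.9% of all probe sets. The arrays of 8 probe sets did not overlap, where 32.1% of all probe sets had no overlap. Epcam 1416579_a_at differed by -0.05 (95% interval -1.19 to 1.08), Ocln 1448873_at by 0.02 (-1.11 to 1.15) and Vim 1438118_x_at by 0.02 (-0.33 to 0.37). The Ocln value rests on a wide young pair: it moved to 1.00 without young transplanted replicate 1 and to -0.97 without replicate 2. The Epcam value likewise moved to -0.97 without aged transplanted replicate 1 and to 0.86 without replicate 2. Zeb2 probe sets parted in sign. Probe set 1454200_at gave 4.73 and 5.01 in aged, against 6.26 and 6.77 in young transplanted HSC (-1.65, SE 0.42, adjusted p = 0.12). Probe set 1456389_at gave 6.03 and 6.15 in aged, against 4.98 and 5.49 in young (0.85, SE 0.23, adjusted p = 0.139), and passed without young transplanted replicate 2 (1.11, adjusted p = 0.0306). Both passed when all 16 arrays shared 1 estimate of the spread (adjusted p = 0.0461 and 0.0336).

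The age differences were also compared between settings. Between transplanted and steady-state HSC no probe set of the 22 was called in limma (0.0511% of all probe sets called), and 3 had an unadjusted p under 0.05, as had 8.77% of all. The difference of the age effects was -1.38 for Epcam 1416579_a_at (95% interval -2.85 to 0.09, adjusted p = 0.608) and -1.08 for Ocln 1448873_at (-2.54 to 0.38, adjusted p = 0.718). The Ocln value was -2.07 (adjusted p = 0.0145) without young transplanted replicate 2 and -0.10 (adjusted p = 0.921) without replicate 1. Between iPSC and steady-state HSC no probe set of the 22 was called either (0.213% of all called), and 5 had an unadjusted p under 0.05, as had 3.57% of all. Epcam 1416579_a_at came to -1.48 (95% interval -2.70 to -0.27, adjusted p = 1), and Vim 1438118_x_at to 0.03 (-0.45 to 0.52).

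Transplanted HSC were set against steady-state HSC, 4 arrays against 6, pooling the ages. Of the 22 probe sets 15 were called, 5 higher and 10 lower in transplanted HSC, where 59.5% of all probe sets were called, 28.1% higher and 31.4% lower. Both Epcam probe sets were lower, by 1.53 (SE 0.33, limma adjusted p = 0.00275) and by 3.18 (SE 0.19, limma adjusted p = 8.34e-07), and both Ocln probe sets were lower, by 1.02 (SE 0.32) and by 2.64 (SE 0.26). The larger difference of each gene, at Epcam 1447899_x_at and Ocln 1440220_at, depends on the array floor. In transplanted HSC these stood at the 12.7th to 15.3rd and the 22.9th to 26.8th percentile. The smaller Ocln difference did not pass without aged transplanted replicate 1 (-0.97, adjusted p = 0.0641, against 0.0223 with all arrays), and it was -0.52 without young transplanted replicate 2. Esrp1 was higher by 0.58 (SE 0.14) at levels below the 25th percentile, and Cdh1, Cldn6 and Snai1 did not pass (-0.21, -0.27 and 0.21). After each array was centred on its median, which moved the median of all probe sets by -0.20 in this comparison and by 0.15 in iPSC minus transplanted HSC, Cdh1, Cldn6 and Cdh2 1418815_at passed at -0.42, -0.48 and -0.44, while Cdh2 1449244_at and Zeb2 1434298_at lost their calls (0.08 and 0.15, adjusted p = 0.544 and 0.334). Snai1 passed at 0.50 without young transplanted replicate 2 (adjusted p = 0.0303).

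Vim gave opposite answers by probe set between transplanted and steady-state HSC. It was higher in transplanted HSC by 1.30 at 1438118_x_at (SE 0.10, limma adjusted p = 4.46e-06) and by 1.87 at 1456292_a_at (SE 0.11, limma adjusted p = 7.09e-07), and lower by 0.64 at 1450641_at (SE 0.16, limma adjusted p = 0.00704). At 1456292_a_at the values were 11.87, 12.07, 12.11 and 12.21 in transplanted HSC, against 9.82 to 10.57 in steady-state HSC. At 1450641_at they were 10.04, 9.31, 9.87 and 10.28, against 10.13 to 10.94. The direction for the gene is therefore not settled by these arrays. The 3′ minus 5′ control signal that set the transplanted arrays apart stands beside this, with the Gapdh controls at 1.79 to 2.37 on transplanted and 2.88 to 3.32 on steady-state HSC arrays, and its part was not tested. The labels do not give where in the transcript each probe set lies.

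**Figure D4:**
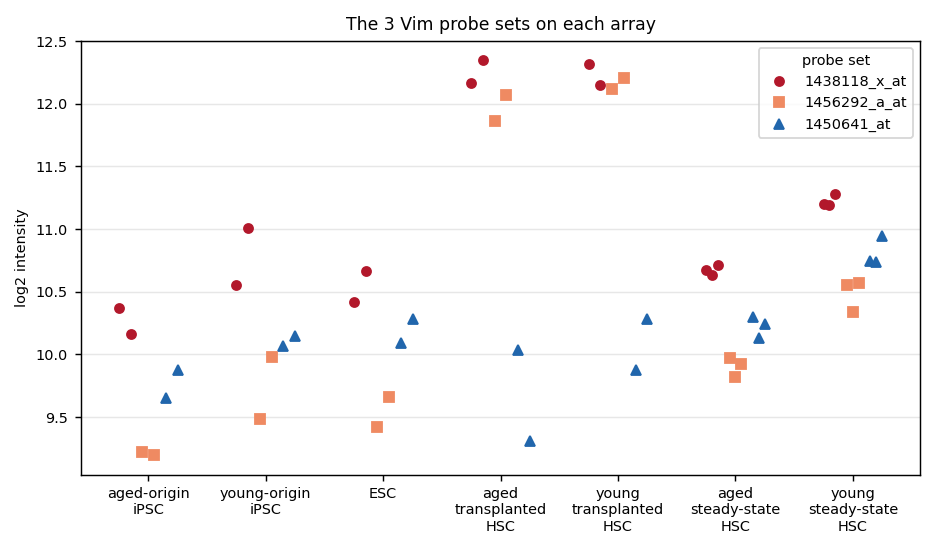
Log2 intensity (vertical axis) of the 3 Vim probe sets (symbols) on each array of the 7 groups (horizontal axis). Probe sets 1438118_x_at and 1456292_a_at were highest in transplanted HSC, at 11.87 to 12.35, while 1450641_at was 9.31 to 10.28 there and highest in young steady-state HSC.

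The repressor genes also parted by probe set. Zeb2 was lower in transplanted HSC at 1456389_at (-1.67, SE 0.15) and 1454200_at (-0.70, SE 0.27), higher at 1434298_at (0.36, SE 0.13), and did not pass at 1422748_at (0.68, limma adjusted p = 0.0682) or 1458941_at (-0.13). The calls at 1454200_at and 1434298_at (limma adjusted p = 0.0469 and 0.0338) were lost under 7 and 6 of the 10 fits that each left out 1 array. Probe set 1422748_at moved to 1.06 without young transplanted replicate 1 and to 0.30 without replicate 2, and it passed in the first case and without aged steady-state replicate 1 (adjusted p = 0.00223 and 0.047). Zeb1 was lower by 0.70 at 1418926_at and by 0.98 at 1443005_at, and did not pass at 1446127_at (0.11, SE 0.30). At 1420243_at it was also called lower, by 0.83, at the background level described above. Cdh2 1449244_at was higher by 0.29 (adjusted p = 0.0448), a call that 8 of the 10 fits without 1 array lost, and 1418815_at did not pass (-0.24).

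Other genes of the 2 programmes were counted, each by its probe set with the highest mean. Of 44 further epithelial genes 42 were measured, and in iPSC against steady-state HSC 32 were higher, 5 lower and 5 not called by limma. Over all 18193 genes, 39.1% were higher and 26.6% lower, and the median difference was 1.27 for the list and 0.20 for all genes. The highest were Ap1m2, a sorting adaptor of epithelial cells (14.7-fold, log2 3.88, SE 0.17), the polarity gene Pard3 (12.9-fold, 3.68, SE 0.15), the tight-junction plaque gene Cgn (12.6-fold, 3.66, SE 0.16), the protease inhibitor gene Spint1 (11.4-fold) and the polarity gene Llgl2 (8.79-fold). The 5 lower genes were Marveld2, Krt18, Patj, Ctnnb1 and Krt7. Marveld2, which encodes tricellulin and belongs to the same protein family as occludin, differed most (-2.83, SE 0.24, limma adjusted p = 2.23e-07). The keratin gene Krt18 differed by -1.63, the polarity gene Patj by -1.23, Ctnnb1, which encodes β-catenin, by -1.21, and Krt7 by -0.98. The lower levels in iPSC were thus not limited to Ocln.

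**Figure D5:**
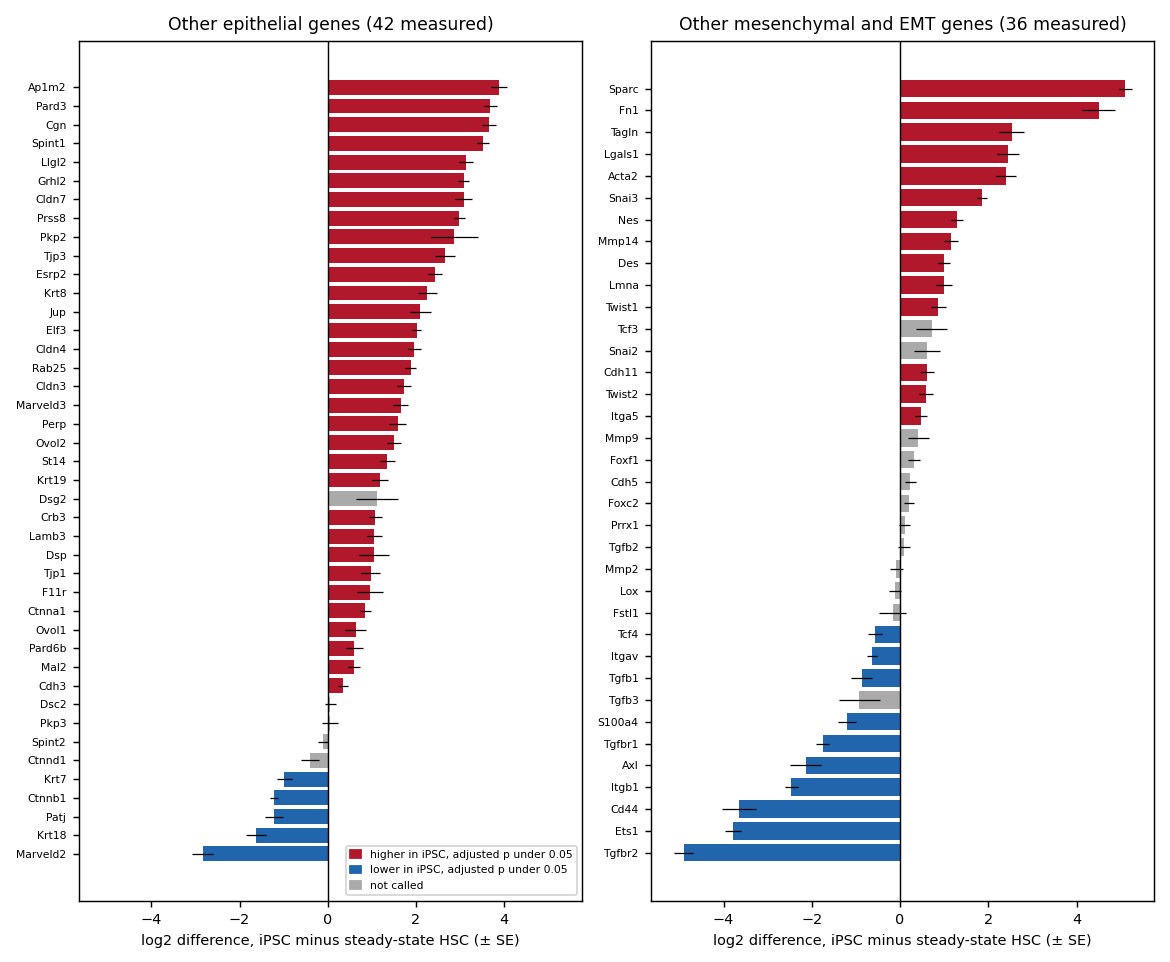
Log2 difference, iPSC minus steady-state HSC (horizontal axis, bars with SE), for 42 other epithelial genes (left) and 36 other mesenchymal genes (right), coloured by the limma call. Bars to the right prevailed among the epithelial genes (32 higher, 5 lower), and the mesenchymal genes ran both ways (14 higher, 10 lower).

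Of 37 further mesenchymal and transition genes 36 were measured, and 14 were higher, 10 lower and 12 not called, with a median of 0.27. These shares were close to those of all genes, of which 39.1% were higher and 26.6% lower with a median of 0.20. Higher in iPSC were Sparc, a matrix-binding protein (34.5-fold, log2 5.11, SE 0.14), the fibronectin gene Fn1 (22.6-fold, 4.50, SE 0.36), the actin-binding protein gene Tagln (5.77-fold), the galectin gene Lgals1 (5.43-fold) and the smooth-muscle actin gene Acta2 (5.26-fold). Sparc and Fn1 are also fibroblast products, and the fibroblast marker sums given above were higher in iPSC and ESC than in HSC, a part that was not tested. Lower were the TGF-β receptor gene Tgfbr2 (-4.91, SE 0.22), the transcription factor gene Ets1 (-3.79, SE 0.19), the hyaluronan receptor gene Cd44 (-3.65, SE 0.38), the integrin gene Itgb1 (-2.47, SE 0.15) and the receptor kinase gene Axl (-2.13, SE 0.35). Cd44, Itgb1 and Ets1 are also genes of blood cells.

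Of 16 reprogramming factors and partners of the repressors 13 were higher, 2 lower and 1 not called, where 39.1% of all genes were higher and 26.6% lower. The median difference was 2.43 for the list and 0.20 for all genes. Pou5f1, Sox2 and Nanog were also among the markers used to check the labels, so their direction is not a separate result. Sox2 was 365-fold higher (log2 8.51, SE 0.12), Pou5f1 82.2-fold, Lin28a 77.7-fold, Nanog 77.1-fold and Sall4 59.0-fold. The steady-state HSC means of Sox2, Lin28a and Nanog (2.97, 3.81 and 2.92) lay below the 25th percentile of the probe sets there, where signal cannot be told from background, so their folds depend on that floor. The lower ones were Ctbp1, a corepressor that Zeb proteins bind (-1.66, SE 0.17), and Myc (-0.65, SE 0.20, limma adjusted p = 0.0126). Ctbp2, the paralogue of Ctbp1, was higher (5.32-fold, log2 2.41, SE 0.14, limma adjusted p = 5.65e-09), named here after its values were seen. The Myc call was lost without aged-origin iPSC replicate 2 (-0.59, adjusted p = 0.0528). In transplanted minus steady-state HSC the epithelial list ran 4 higher and 23 lower of 42, where 19% of all genes were higher and 42.5% lower. The mesenchymal list ran 6 higher and 12 lower of 36 there, and the reprogramming list 3 higher and 9 lower of 16. The share of higher calls in that comparison depends on the scaling: with each array centred on its median the epithelial list ran 1 higher and 27 lower.

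With age in steady-state HSC, 3 genes of these lists were called, named here after their values were seen, where 0.627% of all genes were higher and 0.137% lower. Perp, a p53 target in desmosomes, gave 8.09, 8.24 and 7.90 in aged HSC, against 6.72, 6.04 and 6.06 in young HSC (log2 1.80, SE 0.29, limma adjusted p = 0.0349). The membrane metalloprotease gene Mmp14 gave 7.91 to 8.16 in aged HSC, against 6.50 to 6.78 in young HSC (1.40, SE 0.23, limma adjusted p = 0.0376). The gelatinase gene Mmp2 gave 6.23, 6.26 and 6.52 in aged HSC, against 8.14, 8.15 and 8.04 in young HSC (-1.78, SE 0.22, limma adjusted p = 0.00935). Arrays of the 2 ages did not overlap at any of the 3 genes. With 2 arrays on 1 side the calls were lost: omission of any 1 of the 6 arrays raised the adjusted p of Perp to between 0.0518 and 0.205 and that of Mmp14 to between 0.127 and 0.204. For Mmp2 it came to between 0.0539 and 0.0609 except without aged replicate 3, where it passed at 0.0424. In transplanted HSC no gene of these lists was called with age. Perp gave 4.69 and 5.59 in aged transplanted HSC, against 5.11 and 4.45 in young. Mmp14 gave 5.96 and 6.82, against 5.28 and 5.72, and Mmp2 gave 4.45 and 5.10, against 6.28 and 5.63.

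The genes whose 7 group means ran most like those of Cdh1 were Eras, Dppa4, Folr1, Sox2 and Tcfl5 (Pearson r of 0.9997 to 0.9998). Since 445 of 18183 genes compared had an r over 0.99, the pattern is a common one in arrays split between 2 cell types, and the points share their arrays. For Zeb2, by 1422748_at, they were Hnrnph3, Gsap, Cmas, Clic1 and Tmem127 (r of 0.9984 to 0.9990), with 160 genes over 0.99.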

How the data were processed

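RNA from 16 samples was hybridised to Affymetrix mouse arrays, and the authors deposited 1 linear intensity per probe set and array (4.53 to 31493, none missing). The summarisation and normalisation behind these intensities are not given in the sources used here. RNA was extracted with a QIAGEN kit and cRNA made from 10000 cells, per the labels' protocols. Of 45101 probe sets 64 controls were left out. Of the other 45037, GEO's platform annotation gave 34945 a single symbol, 932 several and 9160 none. Intensities were put on the log2 scale with no pseudocount and no filter on dim probe sets, and tested with limma 3.58.1 in R 4.3.3, with Benjamini-Hochberg adjustment over all 45037 and a threshold of 0.05. Comparisons between cell types used all 16 arrays, those among iPSC and ESC 6, and those among HSC 10. The number of arrays limits the precision. Sequences came from RefSeq (GRCm38.p6).

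Samples were grouped by their titles. All probe sets of the 10 genes are named. From each list the called genes furthest apart between iPSC and steady-state HSC are named, at most 5 each way, each by its probe set with the highest mean, and for Cdh1 and Zeb2 the 5 genes most like them over the 7 group means. The genes and lists were chosen with earlier results of these data known. The fit was tested on simulated data with independent noise for each probe set and array. That simulation holds no effect shared across an array, so it cannot show how preparation differences act on the calls. Alternatives were quantile normalisation, median centring, adding 1 or 64, a filter at the 25th percentile, 1 probe set per gene, an intensity trend with a robust prior, other sets of arrays, a replicate block, a 2-fold minimum and leaving out each array.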

Additional observations from a re-analysis of the deposited data

Results flagged for a closer look

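The age difference of Mmp2, a gelatinase gene of the mesenchymal list, differed between iPSC and steady-state HSC by a test of that difference (log2 1.90, limma adjusted p = 0.0197). Mmp2 gave 7.26 and 7.15 in aged-origin iPSC, against 7.10 and 7.05 in young-origin iPSC, and 6.23, 6.26 and 6.52 in aged steady-state HSC, against 8.14, 8.15 and 8.04 in young steady-state HSC. The adjusted p ran over 0.00127 to 0.169 under the alternatives, and 16 of 26 passed. In transplanted HSC, which this difference does not compare, Mmp2 gave 4.45 and 5.10 for aged marrow. It gave 6.28 and 5.63 there for young marrow, the same direction as at steady state, without a call.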

How the results depend on the processing

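Among the differences called for the 10 genes and the named list genes, 2413 of 2547 values under the alternatives kept their direction and call, 134 kept the direction only, and 0 reversed. The probe sets called among the 22 ranged, as single arrays were left out, over 19 to 21 for iPSC against steady-state HSC, 16 to 20 for ESC, 18 to 20 for iPSC against transplanted HSC and 12 to 15 for transplanted against steady-state HSC. For age they ranged over 0 to 1 in steady-state HSC, over 0 to 1 after transplantation and over 0 to 1 for the difference between both, and stayed at 0 for iPSC against ESC, iPSC origin, and the age difference between iPSC and steady-state HSC. With 1 probe set per gene and dim ones removed, at most 1 for each of the 10 genes was left to test. Of these, 8 were called for iPSC against steady-state HSC, 8 for ESC and 8 for iPSC against transplanted HSC. Transplanted against steady-state HSC had 4. These counts are not out of 22 and cannot be set against those above. At a 2-fold minimum, with all 22 tested, transplanted against steady-state HSC had 7. Age in steady-state HSC gave 2 calls with 64 added and 2 on its own arrays alone, and age in transplanted HSC gave 2 with all 16 arrays.

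Of the lists, the lower reprogramming genes in iPSC numbered 1 with quantile normalisation or a 2-fold minimum and 1 to 2 without single arrays, and the higher mesenchymal genes 8 at 2-fold. In transplanted against steady-state HSC, the higher epithelial genes numbered 1 with median centring or at 2-fold and 3 to 6 without single arrays, and the higher reprogramming genes 1 with centring, the replicate block or 2-fold and 1 to 3 without single arrays. At 2-fold the lower epithelial genes numbered 12, the higher mesenchymal genes 3 and the lower reprogramming genes 4, where leaving out single arrays gave 19 to 25, 6 to 7 and 6 to 10. The cause was not tested beyond the stricter rules themselves.

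Same-numbered arrays did not deviate together (r of -0.02, -0.33 and 0.17 at steady state, -0.13 after transplantation and -0.09 in iPSC), so the replicate block is an alternative only. With it 19 of the 22 were called for iPSC against steady-state HSC, and Perp, Mmp14 and Mmp2 lost their age calls (adjusted p = 0.223, 0.0884 and 0.138). Crossing the numbers of the transplanted arrays, chosen after seeing the data, gave 0 age calls among the 22 and 12 of all probe sets. Over all probe sets, age in steady-state HSC gave 223 calls, 404 on its own arrays, 416 with all 16 and 62 with the block. Age in transplanted HSC gave 375, against 0, 1666 and 0, and iPSC against ESC gave 33, against 0 with 64 added and 102 with trend and robust prior. Adding 64 moved the median of all probe sets by -0.12 in iPSC minus steady-state HSC. With no detection calls, the array background limits what low levels can show.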
